A study of Mus musculus with 75 samples.

Results

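Rad21 binding was compared between mid G1 and late G1 by setting the 15762 Rad21 peaks of mid G1 beside the 18958 Rad21 peaks of late G1. A peak that overlapped a peak of the other list, by 1 bp or more, was called kept. A late-G1 peak with no such partner was called gained, and a mid-G1 peak with none was called lost. These 34720 peaks come from 246850 CTCF and Rad21 peaks in the 12 peak lists of the series. By this rule 4250 of the late-G1 peaks were gained and 14708 were kept, while 1041 of the mid-G1 peaks were lost and 14721 were kept.

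The series followed mouse G1E-ER4 cells out of mitosis by ChIP-seq, a sequencing assay of protein binding, and by Hi-C, a sequencing assay of contacts between genome positions. G1E-ER4 is an immature red blood cell line of strain 129 that lacks the transcription factor GATA1 and carries an inducible form of it, which was left uninduced in every group used here. Cells were held in mitosis with nocodazole at 200 ng/ml for 7 to 8.5 h, released, and sorted by flow cytometry at 120 min for mid G1 and at 240 min for late G1. Each Rad21, CTCF and Hi-C group of these stages had 2 samples.
All groups come from 1 cell line. Pro-metaphase was taken at 0 min, ana/telophase at 25 min and early G1 at 60 min after release in the same way, and asynchronous cells have no release time. No expression values were used here, so the erythroid identity of the cells was not checked.

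Rad21 is a subunit of cohesin, the ring-shaped complex that holds DNA strands together and extrudes chromatin into loops. CTCF is a zinc finger protein that binds a long DNA motif and halts extruding cohesin, so that sites with both proteins often lie at the feet of loops and at the edges of contact domains. Cohesin leaves chromosome arms in mitosis and is loaded again as cells enter G1. In a Hi-C map a loop is a point of raised contact between a pair of anchors, a stripe is a line of raised contact that runs from 1 anchor, and a boundary is the start or end of a contact domain.

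Replicates were merged before peaks were called, so the lists carry no spread between samples and no test between the stages was made. Intervals given below are 95% intervals of counting error (exact binomial for a share, order statistics for a median, Newcombe for a difference of shares), and they treat peaks as separate sites although neighbouring peaks share their source. The number of reads behind a list is unknown, and a deeper list can hold more weak peaks.

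More Rad21 peaks were gained than lost between the stages. Few kept peaks overlapped 2 or more peaks of the other list, so this order follows from the longer late-G1 list. Gained peaks made up 22.4% of the late-G1 list (21.8 to 23.0%), and lost peaks made up 6.60% of the mid-G1 list (6.22 to 7.00%). The step from early to mid G1 had a larger gained share and a smaller lost share, with 8694 peaks in the early-G1 list. Of the mid-G1 Rad21 peaks 46.6% had no partner in early G1, and 3.07% of the early-G1 peaks had none in mid G1. Asynchronous cells were not released from nocodazole and are no later time point, and their Rad21 list was shorter, with 13625 peaks. Of those peaks 4.68% had no late-G1 partner, and 31.6% of the late-G1 peaks had none in asynchronous cells. The CTCF list became shorter between mid and late G1, while the Rad21 list became longer. The CTCF lists were not compared at equal length. Of the 33499 late-G1 CTCF peaks 4.01% were absent from the mid-G1 list, and of the 36009 mid-G1 CTCF peaks 10.8% were absent from the late-G1 list. When each Rad21 list was limited to its strongest 15762 peaks, 14.2% were gained and 14.1% were lost, shares that equal lengths bring close together by construction. Of the 2217 peaks lost in that setting, 1041 had no partner in the whole late-G1 list either. With a −log10 q of at least 20 asked of the classified list alone, a check chosen after seeing the data, 2.11% of late-G1 peaks were gained (223 of 10580) and 0.0838% of mid-G1 peaks were lost (7 of 8358).

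The rule left few peaks near its edge. Among kept late-G1 peaks 1 overlapped its partner by under 50 bp, with 41 bp shared, and among gained peaks 1 lay within 50 bp of a mid-G1 peak, with a gap of 10 bp. A further look out to 1000 bp found 231 gained peaks with a mid-G1 peak that close. Of the kept late-G1 peaks, 18 overlapped 2 or more mid-G1 peaks, and 5 kept mid-G1 peaks overlapped 2 or more late-G1 peaks. By chromosome, the gained share ran from 19.5% on chromosome 13 to 26.4% on chromosome 5, and the lost share from 4.12% on chromosome 11 to 9.40% on chromosome 14.

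Gained and lost peaks were weak members of their lists. The classes rest on whether a peak was called in the other list, and weak peaks lie nearest the limit of calling. Low rank and narrow width are thus in part tied to the rule, and a change in binding was not tested. Peaks were ranked by the authors' fold enrichment at the summit, given as a percentile within the own list with 100 for the strongest peak. Gained peaks had a median percentile of 17.7 (quartiles 8.17 and 29.8), against 60.9 (39.2 and 80.5) for the kept peaks of late G1. Lost peaks had a median percentile of 11.6 (5.51 and 21.3), against 53.0 (29.1 and 76.7) for the kept peaks of mid G1. The median fold enrichment was 5.32 for gained and 10.6 for kept peaks in late G1, and 4.90 for lost and 8.86 for kept peaks in mid G1.

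Over the deciles of the late-G1 list, weakest first, the gained share fell at every step until it reached 0. It was 64.2% in decile 1, 58.9% in decile 2, 28.9% in decile 4 and 1.50% in decile 7. Decile 8 held 4 gained peaks, and deciles 9 and 10 held none. Lost peaks took 28.5% of decile 1 of the mid-G1 list, 18.1% of decile 2 and 1.61% of decile 5. Divided into 4 bins of near-equal size by rank (bin 1 the weakest), the late-G1 list had 2842, 1255, 153 and 0 gained peaks from weakest to strongest, and the mid-G1 list had 853, 182, 6 and 0 lost peaks. The 0 of 4721 in bin 4 of late G1 allows a gained share of up to 0.0635%, taking 3 counts of the total as the limit of a count of 0. Within a bin gained peaks still ranked below kept peaks of late G1. Their median percentiles were 10.9 and 13.7 in bin 1, 34.0 and 39.1 in bin 2, and 55.7 and 62.9 in bin 3. Lost and kept peaks of mid G1 had 9.39 and 13.9 in bin 1 and 32.5 and 38.0 in bin 2. Comparisons within a bin therefore still hold a difference in rank.

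**Figure D1:**
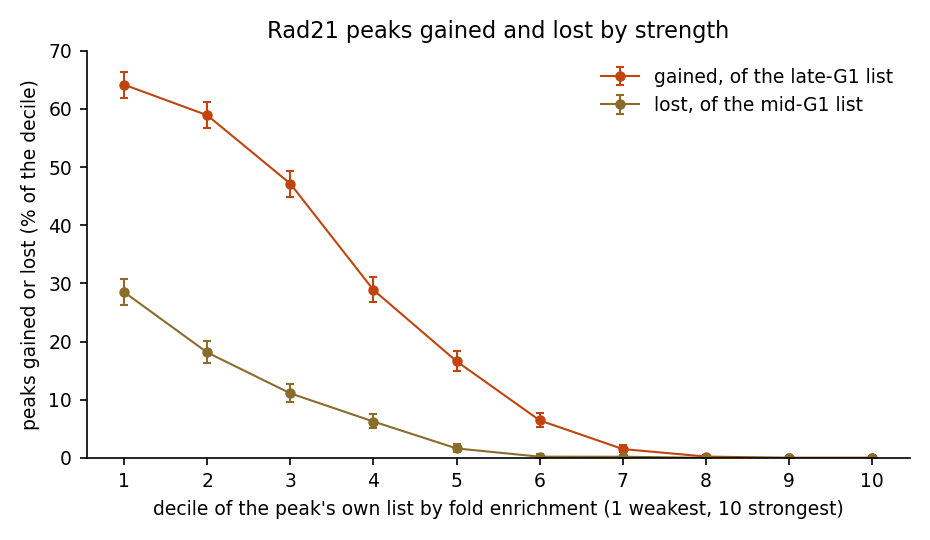
Share of peaks gained (late-G1 list) and lost (mid-G1 list) in each decile of the own list by fold enrichment, weakest at the left, with exact 95% binomial intervals as bars. The gained share runs from 64.2% in decile 1 to 0 in deciles 9 and 10, and the lost share starts at 28.5%.

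Gained and lost peaks were also narrow. The median width was 207 bp for gained peaks (206 to 209 bp) and 310 bp for kept peaks of late G1 (309 to 312 bp), and it was 184 bp for lost peaks (182 to 186 bp) and 267 bp for kept peaks of mid G1 (266 to 268 bp). Width rose with rank in each class, and within rank bins the difference was smaller but still there. In bin 1 of late G1 gained peaks had a median of 193 bp and kept peaks 218 bp, in bin 2 231 and 260 bp, and in bin 3 282 and 311 bp.

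Positions of the strongest gained and lost sites are given in mm9, and these sites are not typical of their classes. The gained peak with the highest fold enrichment lay at chr5:10648161-10648445, with a fold of 14.0 and a late-G1 CTCF peak of fold 28.2, within 20 kb of a boundary, and it was found again in asynchronous cells. The next, at chr14:103949729-103950053 with a fold of 13.5, lay at a loop anchor and near a boundary. It was listed for Rad21 in ana/telophase and early G1 before its absence from the mid-G1 list. The third, at chr6:16977637-16977921 with a fold of 13.3, lay at no listed loop anchor, stripe anchor or boundary and was found in no other Rad21 list. All 5 strongest gained peaks overlapped a CTCF peak in both mid and late G1, and 4 of them were in the asynchronous Rad21 list. Of all gained peaks, 81.2% had CTCF in both stages and 22.7% were in the asynchronous list.

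The strongest lost peak lay at chr13:110697883-110698112, with a mid-G1 Rad21 fold of 10.5, at a late-G1 loop anchor. CTCF had a fold of 42.4 there in the mid-G1 list and 21.9 in the late-G1 list. The next, at chr6:137745498-137745745, also had a Rad21 fold of 10.5, with CTCF folds of 22.8 (mid-G1 list) and 14.4 (late-G1 list). Folds are comparable only within a list, so these CTCF values are not read as a change between the stages. All 5 strongest lost peaks had a CTCF peak in both stages, 3 of them lay at a late-G1 loop anchor, and 1, at chr11:53867806-53868048, was in the asynchronous Rad21 list. Of all lost peaks, 68.0% had CTCF in both stages. The 3 strongest kept peaks had late-G1 folds of 48.9 at chr1:69288285-69288825, 47.6 at chr19:44657047-44657618 and 47.4 at chr2:39228558-39229018. Each of them was present in all 6 Rad21 lists and all 6 CTCF lists and lay at a late-G1 loop anchor.

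Most gained peaks arose where CTCF was already listed. A late-G1 CTCF peak overlapped 84.7% of gained peaks (83.5 to 85.7%) and 98.0% of kept peaks (97.8 to 98.3%), against 95.0% of all late-G1 Rad21 peaks. Of the gained peaks, 3451 (81.2%) had CTCF in both stages, 147 (3.46%) in late G1 alone, 104 (2.45%) in mid G1 alone and 548 (12.9%) in neither. Of the lost peaks, 708 (68.0%) had CTCF in both stages, 45 (4.32%) in mid G1 alone and 275 (26.4%) in neither. A mid-G1 CTCF peak overlapped 72.3% of lost peaks (69.5 to 75.0%) and 97.9% of kept mid-G1 peaks.
The difference between gained and kept peaks was smaller within rank bins. CTCF was at 80.0% of gained and 90.5% of kept peaks in bin 1 of late G1 and at 93.4% and 97.3% in bin 2.

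Rad21 peaks without CTCF changed more often than those with it. Of the 941 late-G1 Rad21 peaks without a late-G1 CTCF peak, 652 were gained (69.3%), compared with 3598 of the 18017 that had one (19.97%). Of the 598 mid-G1 Rad21 peaks without mid-G1 CTCF, 288 were lost (48.2%), compared with 753 of 15164 with it (4.97%). The contrast was smaller within bins 1 and 2 of late G1, where 75.9% of peaks without CTCF and 56.9% of those with it were gained in bin 1, and 46.9 and 25.6% in bin 2. In mid G1 57.3% of peaks without CTCF and 16.4% of those with it were lost in bin 1, and 18.0 and 4.33% in bin 2. The gained peaks without CTCF were weaker, with a median percentile of 10.0 against 19.6 for those with it. They lay at a late-G1 loop anchor in 50.6% of cases and recurred in asynchronous cells in 7.67%, compared with 55.2% and 25.5% of gained peaks with CTCF. The strongest of them, at chr2:57551265-57551511 with a fold of 9.32, overlapped no CTCF peak of any of the 6 lists. The third, at chr4:40624199-40624457 with a fold of 8.78, lay at a loop anchor and a stripe anchor, 4.83 kb from a kept peak.

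Seen from CTCF, Rad21 was gained more often at strong CTCF sites. The 18368 late-G1 CTCF peaks without mid-G1 Rad21 gained it in 19.5% of cases. Over 4 bins of the CTCF list by fold enrichment, weakest first, that share was 9.30, 17.6, 30.4 and 47.0%. The CTCF peaks that gained Rad21 had a median CTCF percentile of 51.9, between 28.3 for CTCF peaks with no Rad21 at either stage and 71.8 for those with Rad21 at both. CTCF peaks with Rad21 in mid G1 alone had a median percentile of 40.8. At a late-G1 loop anchor 25.0% of these CTCF peaks gained Rad21, compared with 15.4% elsewhere, and the order held in each CTCF bin, from 11.7% against 7.71% in bin 1 to 53.6% against 39.5% in bin 4. CTCF peaks that were also listed in pro-metaphase gained Rad21 in 25.5% of cases, compared with 17.7% for the rest. For ana/telophase the order was reversed, with 19.2% for listed and 20.8% for unlisted CTCF peaks. The shares were 19.8 and 17.5% for early G1, 20.1 and 12.0% for mid G1, and 20.3 and 14.6% for asynchronous cells. These splits by stage were not made at like CTCF rank.

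**Figure D2:**
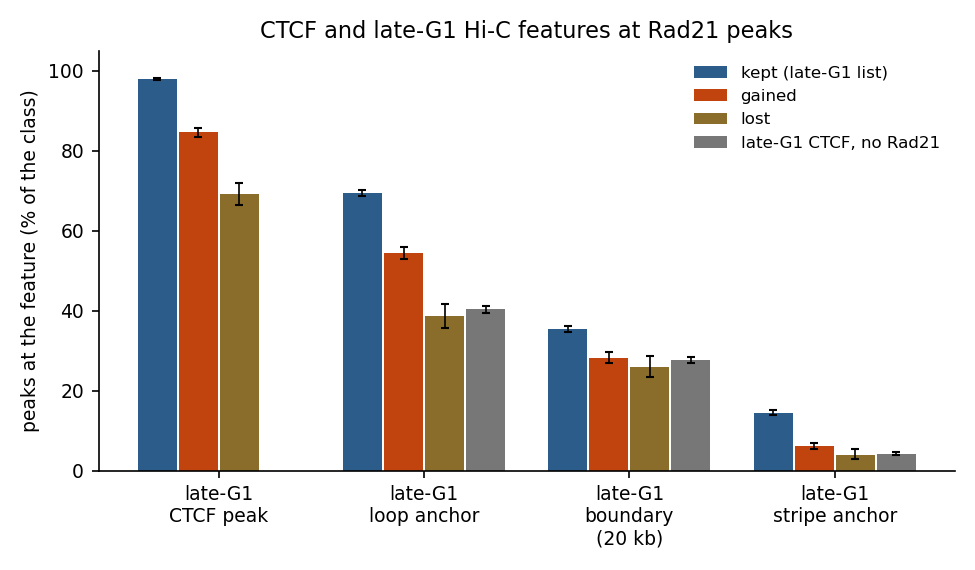
Bars give the share of kept, gained and lost Rad21 peaks and of late-G1 CTCF peaks without Rad21, in percent, that overlap a late-G1 CTCF peak, lie at a late-G1 loop anchor, lie within 20 kb of a boundary or lie at a stripe anchor, with exact 95% binomial intervals. Kept peaks are above gained peaks and gained above lost peaks at loop anchors, where the shares are 69.5, 54.5 and 38.7%.

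Loop anchors held more kept than gained peaks and more gained than lost peaks. Of the gained peaks 54.5% (53.0 to 56.0%) overlapped an anchor of the 11340 late-G1 loops, against 66.1% of all late-G1 Rad21 peaks. The share was 69.5% (68.7 to 70.2%) for kept and 38.7% (35.7 to 41.7%) for lost peaks. Late-G1 CTCF peaks without Rad21 at mid or late G1 lay at an anchor in 40.3% of cases.
At loop anchors too, the difference between gained and kept peaks was smaller within rank bins. In bin 1 of late G1 54.0% of gained and 55.6% of kept peaks lay at an anchor, a difference of −1.59 percentage points (−4.47 to 1.30). It was −4.10 points in bin 2 and −10.4 in bin 3. Lost peaks stayed below kept mid-G1 peaks of the same bin, with differences of −18.8 points in bin 1 and −25.2 in bin 2.

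Many gained peaks joined anchors that already carried Rad21. Of the 2317 gained peaks at a late-G1 anchor, 61.7% shared an anchor with a kept peak, and of the 10215 kept peaks at an anchor 50.5% shared it with another kept peak. Anchors of mid-G1 loops covered 49.3% of gained peaks, fewer than the 65.8% of kept peaks and 62.1% of all late-G1 Rad21 peaks. By the rule gained peaks have no Rad21 peak of their own in the mid-G1 list. Of the 2097 gained peaks at mid-G1 anchors, 735 (35.1%) lay at anchors with no mid-G1 Rad21 peak. Kept peaks give no reference for that share, since they overlap a mid-G1 Rad21 peak by the rule.

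At stripe anchors, late-G1 Rad21 peaks were fewer, 12.6% in all. The share was 6.12% for gained, 14.5% for kept and 4.03% for lost peaks, and 4.28% for CTCF peaks without Rad21. The long bodies of stripes covered 37.5% of gained, 39.2% of kept and 29.6% of lost peaks. At stripe anchors gained minus kept was 0.257 percentage points in bin 1 (−1.15 to 1.61), −1.69 in bin 2 (−3.23 to 0.022) and −6.29 in bin 3 (−9.02 to −1.46), so that the interval left out 0 in bin 3 alone. Within 20 kb of a boundary lay 33.7% of all late-G1 Rad21 peaks, 28.2% of gained (26.9 to 29.6%), 35.3% of kept and 25.9% of lost peaks. Near boundaries gained minus kept was −1.15 percentage points in bin 1 (−3.73 to 1.40), −0.306 in bin 2 (−3.28 to 2.74) and −1.95 in bin 3 (−9.17 to 6.00), with 0 inside each interval.

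**Figure D3:**
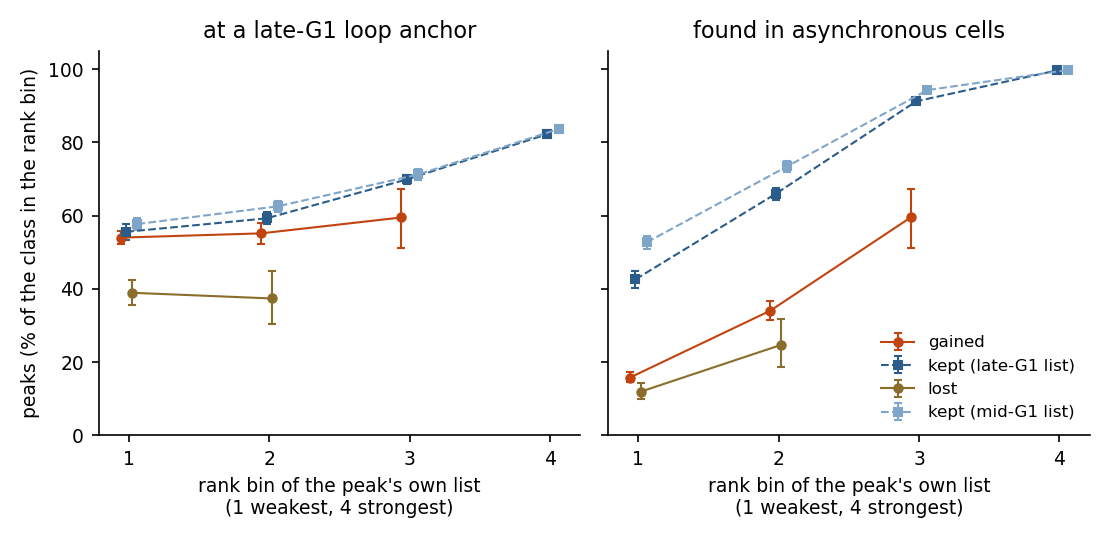
Share of gained, lost and kept peaks, in percent, at late-G1 loop anchors (left) and in the asynchronous Rad21 list (right) within each of the 4 rank bins of the own list by fold enrichment, with exact 95% binomial intervals. At loop anchors gained and kept peaks start at 54.0 and 55.6% in bin 1 and part to 59.5 and 69.9% in bin 3.

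Gained peaks lay no closer to kept peaks at the median than kept peaks lay to each other. The median distance to the nearest kept peak was 26.7 kb for gained peaks (25.2 to 28.1 kb) and 26.7 kb from a kept peak to the nearest other one (26.0 to 27.6 kb). It was 42.3 kb for lost peaks (37.8 to 49.6 kb) and 26.9 kb for CTCF peaks without Rad21. Within 10 kb of a kept peak lay 27.3% of all late-G1 Rad21 peaks, 28.5% of gained, 26.9% of kept and 20.0% of lost peaks. Gained minus kept was 1.54 percentage points (0.02 to 3.09), and it changed sign to −0.467 with a fold enrichment of at least 5 in both lists and to −0.217 with lists of equal length. At the shortest range gained peaks were ahead, with 3.86% of gained and 2.41% of kept peaks within 1000 bp of a kept peak. By 50 kb the shares were 67.4 and 67.6%, and 53.5% of lost peaks had a kept peak that near. The neighbours in the list differed as little: both adjacent late-G1 peaks were kept for 59.8% of gained and 59.9% of kept peaks. Only 11 gained peaks shared a CTCF peak with a kept peak.

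**Figure D4:**
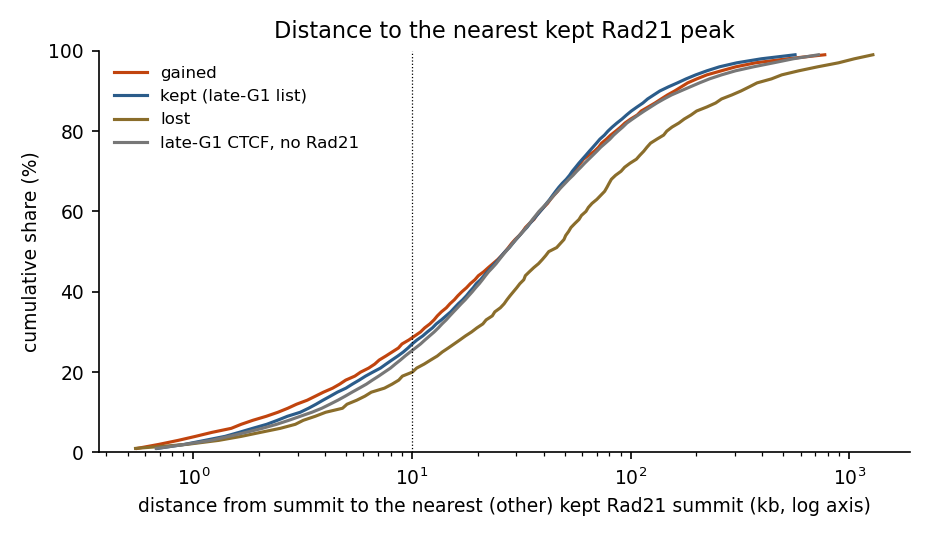
Cumulative share of peaks, in percent, by distance to the nearest kept Rad21 peak on a log axis in kb, for gained, lost and kept peaks and for late-G1 CTCF peaks without Rad21. The gained and kept curves reach their medians at 26.7 kb each and the lost curve at 42.3 kb, and the dotted line marks 10 kb.

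Most 100 kb windows with a gained peak held a single one. Of these windows, 3020 held 1, 454 held 2, 92 held 3, 9 held 4 and 2 held 5. Kept peaks were not counted in this way, so the spread is not read as a trait of gained peaks. The window chr19:45100001-45200000 held 5 gained and 3 kept peaks, and all 5 gained peaks overlapped CTCF. The window chr6:83000001-83100000 held 5 gained, 2 kept and 1 lost peak, and all 5 gained peaks there lay at loop anchors. At the other end, the gained peak at chrX:119278903-119279104 was 6559.68 kb from the nearest kept peak and overlapped CTCF in both stages.

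Loops with gained Rad21 were mostly present in mid G1. A late-G1 loop was matched if a mid-G1 loop had both anchors within 20 kb, as for 81.1% of all late-G1 loops. The 5125 loops with kept peaks at both anchors were matched in 86.7% of cases and had a median observed/expected contact of 4.08. The 815 loops with a kept peak at 1 anchor and gained peaks alone at the other were matched in 78.8%, with a median ratio of 3.25. The 424 loops with gained peaks and no kept peak at their anchors were matched in 74.8% (70.3 to 78.8%), with a ratio of 2.83, and the 1759 loops without late-G1 Rad21 in 75.6% (73.5 to 77.5%), with a ratio of 2.77. A gained peak lay at an anchor of 29.5% of matched and 26.2% of unmatched loops.

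Only 37 loops had gained peaks and no kept peak at both anchors, and 10 of these were unmatched in mid G1. The one with the highest ratio, 3.61, joined chr3:97480001-97490000 and chr3:97660001-97690000 over 190 kb. Its gained Rad21 peaks had folds of 6.12 and 5.32. The second joined chr10:58910001-58920000 and chr10:59250001-59280000 over 360 kb with a ratio of 3.55, and the third joined chr7:82710001-82730000 and chr7:82960001-82980000 over 260 kb with a ratio of 3.48.
Among the 9714 mid-G1 loops, those with lost peaks and no kept peak at their anchors were found in late G1 in 81.9% of cases (86 of 105). The share was 92.4% with kept peaks at both anchors and 84.4% with no mid-G1 Rad21. Of the 13553 late-G1 boundaries, 85.3% of the 739 with a gained and no kept peak were matched in mid G1, compared with 89.9% of those with a kept peak, 76.8% of those with a lost peak alone and 63.2% of those with none. Boundaries with none were 55.7% of all boundaries, and those with a kept peak were 37.6%. Of the 1745 late-G1 stripes only 28 had a gained and no kept peak, and 82.1% of these were matched (63.1 to 93.9%). The share was 97.5% for stripes with a kept peak, which were 83.0% of all stripes, and 83.5% for the 261 stripes with no Rad21 peak of any class.

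Most gained and lost sites were listed for Rad21 in a single list, which is in part set by the rule. Of the gained peaks, 3107 (73.1%) were found in no other Rad21 list, and of the lost peaks 844 (81.1%). The rule keeps gained peaks out of the mid-G1 list and lost peaks out of the late-G1 list. Kept peaks are in both lists by definition, so they give no reference for these shares. No gained peak was found in pro-metaphase, where 0 of 4250 allows a share of up to 0.0706% (3 counts of the total). Few late-G1 peaks of any kind were found there, 2.47% of all and 3.19% of kept peaks, and of kept peaks of low rank 2 of 1904 in bin 1 and 4 of 3508 in bin 2. Gained peaks were found in ana/telophase in 4.96% and in early G1 in 3.84% of cases, while kept peaks were found there in 45.4 and 57.0% and all late-G1 peaks in 36.3 and 45.1%. Within rank bins the difference was smaller. In bin 1 the shares for ana/telophase were 3.73% of gained and 11.3% of kept peaks, and for early G1 1.83 and 12.5%. In bin 2 they were 6.45 and 21.4% for ana/telophase and 7.01 and 28.2% for early G1. In asynchronous cells 22.7% of gained (21.5 to 24.0%), 81.6% of kept and 14.3% of lost peaks were found, against 68.4% of all late-G1 Rad21 peaks.
Kept peaks recurred more often than gained peaks within rank bins too, though kept peaks also ranked higher there. The shares were 42.6% against 15.8% in bin 1, 66.0% against 34.0% in bin 2 and 91.2% against 59.5% in bin 3. CTCF was listed at many gained sites before late G1, while the absence of Rad21 from them in mid G1 is set by the rule. The CTCF list of pro-metaphase covered 26.1% of gained peaks, that of ana/telophase 66.3%, that of early G1 76.6% and that of mid G1 83.6%. These shares were lower than those of kept peaks, at 46.3, 86.4, 94.6 and 97.9%. For all late-G1 Rad21 peaks they were 41.7, 81.9, 90.5 and 94.7%.

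**Figure D5:**
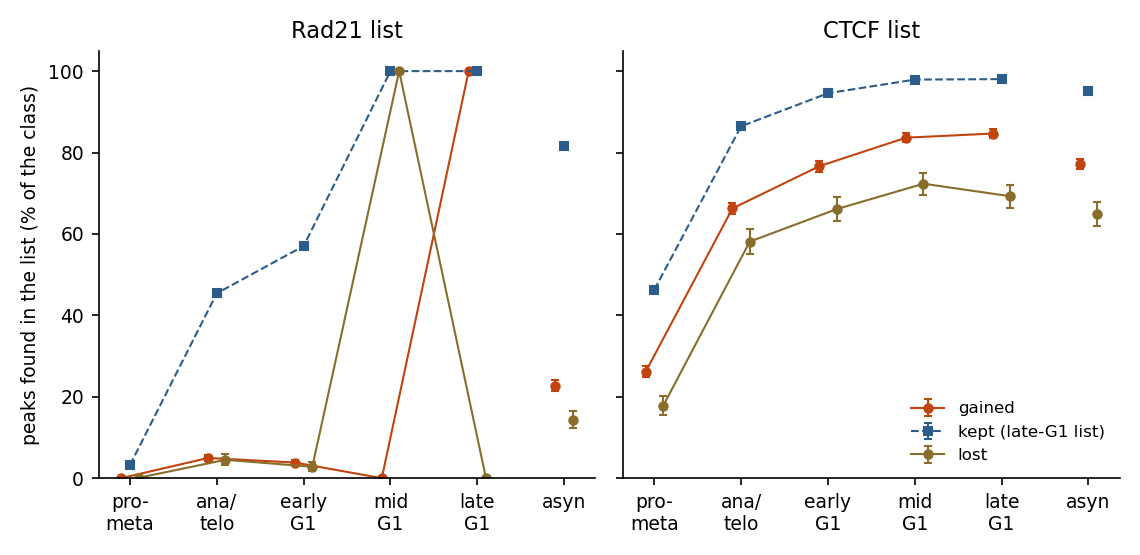
Share of gained, lost and kept peaks, in percent, found in the Rad21 list and in the CTCF list of each of the 6 stages, with exact 95% binomial intervals. The mid-G1 and late-G1 Rad21 points of each class are set by the rule itself, while CTCF at gained sites runs from 26.1% in pro-metaphase to 84.7% in late G1.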

How the data were processed

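ChIP-seq for Rad21 and CTCF and in situ Hi-C were measured in sorted G1E-ER4 cells, grouped by target and stage from the sample titles. The submitters' processing notes name MACS2 2.1.0, Bowtie 0.12.7, bedtools 2.27.1 and SAMtools 1.7 for ChIP-seq, Bowtie2 and HiC-Pro for Hi-C, and the build mm9. For stripes, loops and domains the calling tool was not given in the sources used. Names of the deposited peaks record that replicates were merged and downsampled, with 1 list per target and stage. Each peak has a deposited fold enrichment (a ratio) and a deposited −log10 q, used only to rank, describe or filter peaks within a list. The loop lists give an observed and an expected contact signal and a p-value, per the file headers, and the stripe lists a deposited strength ratio.

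Overlaps were computed in Python 3.11.15 (pandas 2.3.3, NumPy 2.4.6, SciPy 1.17.1), figures were drawn with Matplotlib 3.10.9, and the overlap code was tested on simulated data against bedtools 2.31.1. Late-G1 features were the anchors of loops, the short sides of stripes, and the distinct domain starts and ends within 20 kb of a peak. Distances were taken between summits. The named regions were the 5 gained and 5 lost peaks with the highest fold enrichment, the 3 such gained peaks without CTCF, the 3 such kept peaks, the 3 fullest 100 kb windows, the 3 gained peaks farthest from a kept peak and the 3 unmatched loops with the highest ratio, of which some are given by count. Alternatives changed the match, the filters, the list lengths and the distances. The members and lists were chosen with earlier results of these data known. Genes and sequences were not used because no mm9 genome was at hand. Capture-C, Pol II and input samples and the Hi-C lists of other stages were not analysed here. Depth per sample is unknown.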

Additional observations from a re-analysis of the deposited data

How the results depend on the processing

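Only pooled lists were used, so leaving out a replicate was not possible. No paired analysis was possible because replicates were merged into 1 list per stage. Results fell into 87 values that stayed within the interval of the reported value, 86 that moved beyond it and 3 that changed sign. The sign changed for closeness to kept peaks and for stripe anchors in rank bin 1, both small differences of gained and kept peaks. Limits on −log10 q, fold enrichment or list length make the classes anew, since a peak whose partner falls under the limit counts as gained or lost. Of the 2644 gained and 421 lost peaks at a −log10 q of at least 20, only 223 and 7 had no partner in the whole other list, so those values mostly set kept peaks against kept peaks. At a fold enrichment of at least 5 it was 2723 of 3766 gained and 518 of 1098 lost peaks. Every other value kept its direction, and the cause of each shift was not tested. Limits of 150 bp on peaks and 100 kb on stripes changed nothing, since the narrowest peak had 165 bp and the shortest stripe 130 kb. Values under these limits are counted among the 87 although they could not move. Rank bin 3 gave no value for lost peaks and bin 4 none for either class, because fewer than 20 peaks of a class were there. Values below for CTCF, distances, loops, stripes, boundaries and asynchronous cells are the class minus kept, in percentage points.

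With an overlap of 50% of both peaks, the share was 23.2% for gained and 7.66% for lost, presence at loop anchors was −25.4 for lost, presence at stripe anchors was −8.23 for lost, recurrence in asynchronous cells was −57.4 for gained and −60.1 for lost. With summits within 100 bp, the share was 7.14% for lost. With a −log10 q of at least 5, the share was 21.8% for gained and 6.13% for lost, median percentile was 18.0 for gained and 13.5 for lost, median width was 211 bp for gained and 188 bp for lost, CTCF overlap was −10.8 for gained and −17.5 for lost. There recurrence in asynchronous cells was −64.4 for lost. With a −log10 q of at least 20, the share was 25.0% for gained and 5.04% for lost, median percentile was 21.4 for gained and 18.5 for lost, median width was 288 bp for gained and 255 bp for lost, CTCF overlap was −0.794 for gained and −2.75 for lost. There presence near a kept peak was −2.12 for lost, presence at loop anchors was −17.1 for lost, presence at stripe anchors was −12.2 for gained and −13.9 for lost, presence at boundaries was −2.46 for gained and −5.45 for lost. There recurrence in asynchronous cells was −17.9 for gained and −19.9 for lost. With a fold enrichment of at least 5, the share was 7.90% for lost, median percentile was 17.8 for gained and 13.8 for lost, median width was 228 bp for gained and 199 bp for lost, CTCF overlap was −7.1 for gained and −8.34 for lost. There presence near a kept peak was −0.467 for gained and −4.4 for lost, presence at loop anchors was −21.0 for lost, presence at stripe anchors was −9.28 for gained, recurrence in asynchronous cells was −51.3 for gained and −54.9 for lost. With lists of equal length, the share was 14.2% for gained and 14.1% for lost, median percentile was 14.3 for gained and 15.8 for lost, median width was 224 bp for gained and 192 bp for lost, CTCF overlap was −7.73 for gained and −16.6 for lost. There presence near a kept peak was −0.217 for gained, presence at loop anchors was −22.5 for lost, presence at stripe anchors was −9.75 for gained, recurrence in asynchronous cells was −54.7 for gained and −57.6 for lost. With asynchronous CTCF peaks for all classes, CTCF overlap was −18.0 for gained and −30.3 for lost. With a distance of 5 kb, presence near a kept peak was −4.14 for lost. With a distance of 20 kb, presence near a kept peak was −11.1 for lost. With anchors widened by 10 kb, presence at loop anchors was −11.2 for gained and −25.9 for lost. With stripe anchors widened by 10 kb, presence at stripe anchors was −12.8 for lost. With a distance of 10 kb, presence at boundaries was −3.65 for gained and −5.72 for lost. With domains in no larger domain, presence at boundaries was −3.52 for gained. With loops matched within 10 kb, the matched share of loops with gained peaks alone, minus that of loops with kept peaks at both anchors, was −17.4. With loops matched within 40 kb, the matched share of loops with gained peaks alone, minus that of loops with kept peaks at both anchors, was −5.89. In rank bin 1, presence at loop anchors was −1.59 for gained and −18.8 for lost, presence at stripe anchors was 0.257 for gained and −3.45 for lost, presence at boundaries was −1.15 for gained and −4.42 for lost. In rank bin 2, presence at loop anchors was −4.1 for gained and −25.2 for lost, presence at stripe anchors was −1.69 for gained and −4.36 for lost, presence at boundaries was −0.306 for gained and −4.5 for lost. In rank bin 3, presence at loop anchors was −10.4 for gained, presence at stripe anchors was −6.29 for gained, presence at boundaries was −1.95 for gained. With a −log10 q of at least 5 in the classified list alone, chosen after seeing the data, the share was 20.4% for gained and 5.22% for lost. With a −log10 q of at least 20 in the classified list alone, also chosen then, the share was 2.11% for gained and 0.0838% for lost.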
